A study of Mus musculus with 9 samples.

Results

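The genes described here make, degrade, bind or sense retinoic acid in the olfactory mucosa, the lining of the nose that carries the olfactory sensory neurons. They are 9 genes taken by name, of 19084 named genes on the array: the degrading enzymes Cyp26a1 and Cyp26b1, the retinol transporter Stra6, the synthesising enzymes Aldh1a1, Aldh1a2 and Aldh1a3, the binding proteins Crabp1 and Crabp2, and the nuclear receptor Rarb. Each of the 9 has 1 probe on the array, so no choice between probes was needed. The 9 were selected on measured values, with the intensities of these arrays in all 3 groups already known. Their values and the outcome of the test over all features are therefore given as a description and carry no independent support.

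The study put total RNA of olfactory mucosa from wild-type male C57BL/6 mice aged 6 to 8 weeks on 9 single-colour arrays, 3 for each of 3 groups. WK2 mice received dexamethasone, a synthetic glucocorticoid, by daily intraperitoneal injection at 1 mg/kg over 2 weeks. D1 mice received dexamethasone for 1 day; the labels give the dose beside the WK2 group only. Control mice received saline for 2 weeks, so D1 and control also differ in the length of injection. Of 9 mice in each group, 3 samples were picked for optimal expression of olfactory marker protein; the part of that choice in other genes was not tested. The labels do not say that the samples are separate animals, so the p-values measure sample-to-sample spread only, part of which may be technical.

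As background, retinoic acid is made from vitamin A in steps. Retinol enters cells, partly through the membrane receptor STRA6, is oxidised to retinal, and is oxidised again by the ALDH1A enzymes to retinoic acid. Cellular retinoic acid binding proteins carry the acid to the nucleus or to CYP26 enzymes, which inactivate it. The nuclear receptors RAR, with RXR as partners, turn target genes on or off when the acid is bound. Cyp26a1 and Rarb are textbook direct targets in mouse cells, through a response element of repeated half-sites in their promoters. In the olfactory mucosa, which renews its neurons throughout life, the pathway is known for its part in development and in the turnover of progenitors.

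The promoters of Cyp26a1 and Rarb are shown because each holds such an element. RefSeq's table for build GRCm38.p6 gave 11 start-site windows for 7 of the 9 genes, each running from 250 bases before the start to 50 after it. Aldh1a3 and Crabp2 had no entry. The windows were searched on both strands for direct repeats of 4 half-sites, spaced by 5, 2 or 1 bases. These were the textbook form AGGTCA, the form AGTTCA found in known elements, the form GGGTCA that starts with another base, and the form GGTTCA that combines both changes. Capitals mark the half-sites of a repeat found, and each window is written in the direction of its gene.
Cyp26a1 at chr19:37697558-37697857, plus strand: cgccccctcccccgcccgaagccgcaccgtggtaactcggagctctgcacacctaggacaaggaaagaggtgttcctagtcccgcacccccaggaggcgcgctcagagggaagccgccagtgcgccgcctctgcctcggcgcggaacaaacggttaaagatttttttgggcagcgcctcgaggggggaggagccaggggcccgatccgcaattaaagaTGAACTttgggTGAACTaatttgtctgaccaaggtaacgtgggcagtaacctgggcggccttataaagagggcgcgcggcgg
Rarb at chr14:16575427-16575726, minus strand: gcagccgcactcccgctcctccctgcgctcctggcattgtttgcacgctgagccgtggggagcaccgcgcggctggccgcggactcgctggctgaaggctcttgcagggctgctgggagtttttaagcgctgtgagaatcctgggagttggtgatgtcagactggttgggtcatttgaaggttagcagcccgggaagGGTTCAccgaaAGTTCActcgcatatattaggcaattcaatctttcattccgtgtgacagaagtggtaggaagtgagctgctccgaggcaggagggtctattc

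Both repeats are spaced by 5 bases. That of Rarb lies 53 to 37 bases before the start on the strand of the gene, and that of Cyp26a1 lies 32 to 16 bases before the start on the opposite strand. Read in the direction of the repeat, the elements compare as follows, with half-sites in capitals.
Cyp26a1: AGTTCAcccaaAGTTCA
Rarb: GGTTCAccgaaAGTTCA
They share 15 of 17 bases and differ by G1A and G9C, with the Rarb base first and positions counted from 1 at the 5′ end of the repeat. A repeat spaced by 5 was in 32 of the 32851 windows of all genes, or 0.0974%, one spaced by 2 in 0.268% and one spaced by 1 in 0.222%. The other 9 windows, among them 4 of Stra6, held none of these repeats, and no window of the 7 genes held the exact palindrome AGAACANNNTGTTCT of the glucocorticoid receptor, which was in 0.00913% of all windows. Cyp26a1 and Rarb were known targets, and the half-sites searched include forms of known elements. Their matches are therefore shown as an illustration and the shares above do not make them a find. A match describes letters only and a missing match says nothing of the factor.

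In WK2 against control, the fit over 23631 features called 2 of the 9 genes, Cyp26a1 higher and Stra6 lower, beside 1.61% of all features, 0.432% higher and 1.18% lower. A gene is called, or said to have risen or fallen, at an adjusted p under 0.05 in limma with Benjamini-Hochberg adjustment over all features. The other 7 were not called. In WK2 against D1 the fit called 0 of the 9, beside 0.0931% of features (0.0296% higher and 0.0635% lower), and in D1 against control 0 of the 9, beside 0.0%. At an unadjusted p under 0.05 the limma counts were 4, 4 and 0 of the 9 in the same order, beside 29.7%, 19.2% and 2.0% of features. Differences lay above 0 for 6, 5 and 5 of the 9, beside 62.7%, 61.6% and 56.6% of features. The median log2 difference of the 9 genes was 0.19, 0.28 and 0.04, beside 0.14, 0.10 and 0.03 over all features. That median over all features in WK2 against control was 0.01 after quantile normalization, 0.04 after median centring and 0.03 after cyclic loess, so differences relative to it are also given for the genes called. A difference is on the scale of log2(intensity + 50), which understates the change of dim genes.

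**Figure D1:**
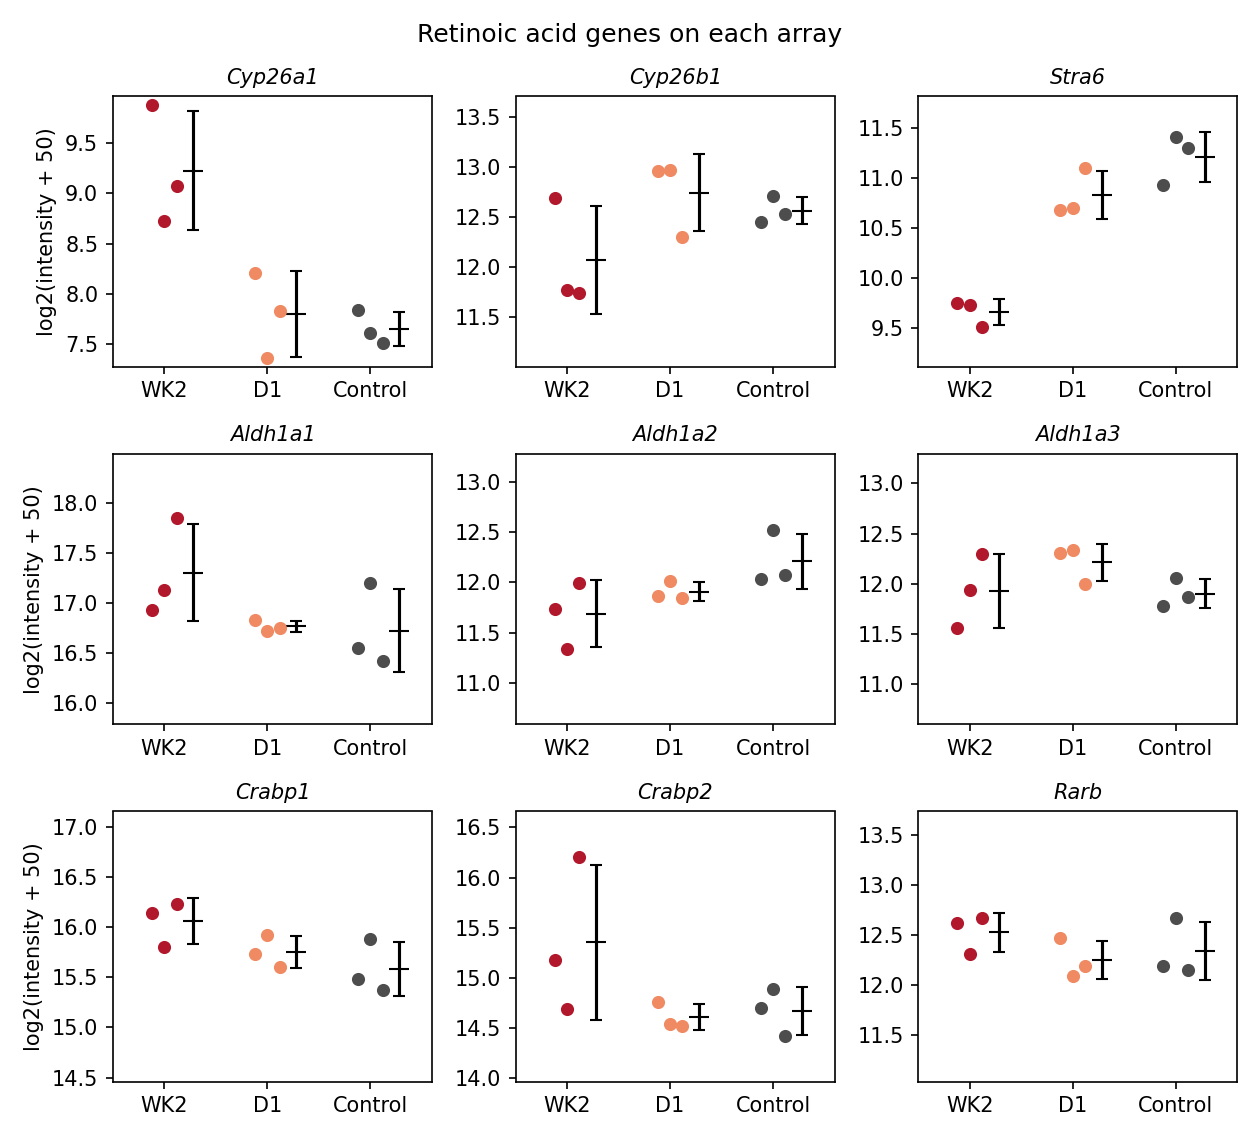
Values of the 9 genes on each array, as log2(intensity + 50) on the vertical axis, for the WK2, D1 and control groups. Points are arrays, and the bar beside them is the mean with its SD (n = 3); every panel spans the same range on the log2 scale, placed differently. Cyp26a1 in WK2 lies above, and Stra6 in WK2 below, all arrays of the other groups.

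Cyp26a1 encodes a cytochrome P450 that hydroxylates retinoic acid and so clears it. Its intensity was 895, 375 and 489 in WK2 samples, 246, 114 and 178 in D1 samples and 178, 145 and 132 in control samples. All 3 WK2 values lay above every D1 and control value, and D1 overlapped control. The mean was 586 ± 273 in WK2, against 152 ± 23.8 in control (SD, n = 3 each). Cyp26a1 rose 2.99-fold in WK2 against control on the fitted scale (log2 1.58 ± 0.30 SE, adjusted p = 0.0433, limma), or 1.44 above the shift of all features. Against D1 its WK2 level differed by 1.43 ± 0.30 (adjusted p = 0.117, limma) and was not called. In D1 against control the difference was 0.15, with a 95% interval from -0.52 to 0.82.

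The signal of Cyp26a1 was low, with a mean over the 9 arrays above 25.8% of features, and the table gives no detection calls. The size therefore depended on the pseudocount, with a log2 difference of 0.71 (adjusted p = 0.0598, limma) when 500 was added in place of 50 and of 1.76 (adjusted p = 0.0489) when 16 was. Its call in WK2 against control ended whenever a control or D1 array, or WK2 replicate 2 or 3, was left out, with adjusted p from 0.0650 to 0.149 (limma), and stayed without WK2 replicate 1, the highest sample (1.25, adjusted p = 0.0414). It also ended under cyclic loess (0.0505) and in the fit of the 2 groups compared only (0.113).

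Cyp26b1 encodes a second retinoic acid hydroxylase of the same family. Its intensity was 6581, 3454 and 3375 in WK2 samples, 7931, 7970 and 5003 in D1 samples and 5538, 6658 and 5863 in control samples. WK2 replicates 2 and 3 were the lowest of all 9 arrays, while WK2 replicate 1 lay among the control values. The log2 difference was -0.49 ± 0.28 (SE) in WK2 against control (adjusted p = 0.245, limma) and -0.67 ± 0.28 against D1 (adjusted p = 0.233), with 95% intervals from -1.11 to 0.12 and from -1.29 to -0.06. Without WK2 replicate 1 the first of these was -0.80 (adjusted p = 0.0724, limma). WK2 replicate 1 held the highest value of its group for both Cyp26 genes. Cyp26c1, the remaining enzyme of the family, is named here although its values were seen first. It averaged 993 ± 173 in WK2 and 642 ± 268 in control. The difference of 0.67 ± 0.29 was not called (adjusted p = 0.159, limma). Cyp26c1 had 936, 857 and 1188 in WK2 samples and 858, 342 and 727 in control samples. These groups overlapped, and control replicate 2 was the lowest array.

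Stra6 encodes the membrane receptor that takes up retinol from its plasma carrier, retinol binding protein. Its intensity was 810, 800 and 682 in WK2 samples, 1593, 1615 and 2146 in D1 samples and 1901, 2670 and 2461 in control samples. The 3 WK2 values lay close together and below every other array, while D1 and control overlapped. The mean was 764 ± 71.4 in WK2, against 2344 ± 398 in control (SD, n = 3 each). Stra6 fell 2.92-fold in WK2 against control (log2 -1.55 ± 0.18 SE, adjusted p = 0.0182, limma), or -1.68 relative to the shift of all features.

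In WK2 against D1 the mean of Stra6 was 764 ± 71.4, against 1784 ± 313 (SD, n = 3 each). The log2 difference was -1.16 ± 0.18 (SE) with a 95% interval from -1.56 to -0.76, and at adjusted p = 0.0541 (limma) it was not called. It was called in 5 of 21 alternatives, among them quantile normalization (-1.26, adjusted p = 0.0255) and median centring (-1.21, adjusted p = 0.0480). In D1 against control the difference was -0.38 with a 95% interval from -0.79 to 0.02. The call of Stra6 in WK2 against control ended without control replicate 3 (adjusted p = 0.123, limma), without WK2 replicate 2 (0.0687) or 3 (0.0630) and in the fit of the 2 groups compared only (0.0667), with the difference between -1.69 and -1.45 over all arrays left out singly.

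**Figure D2:**
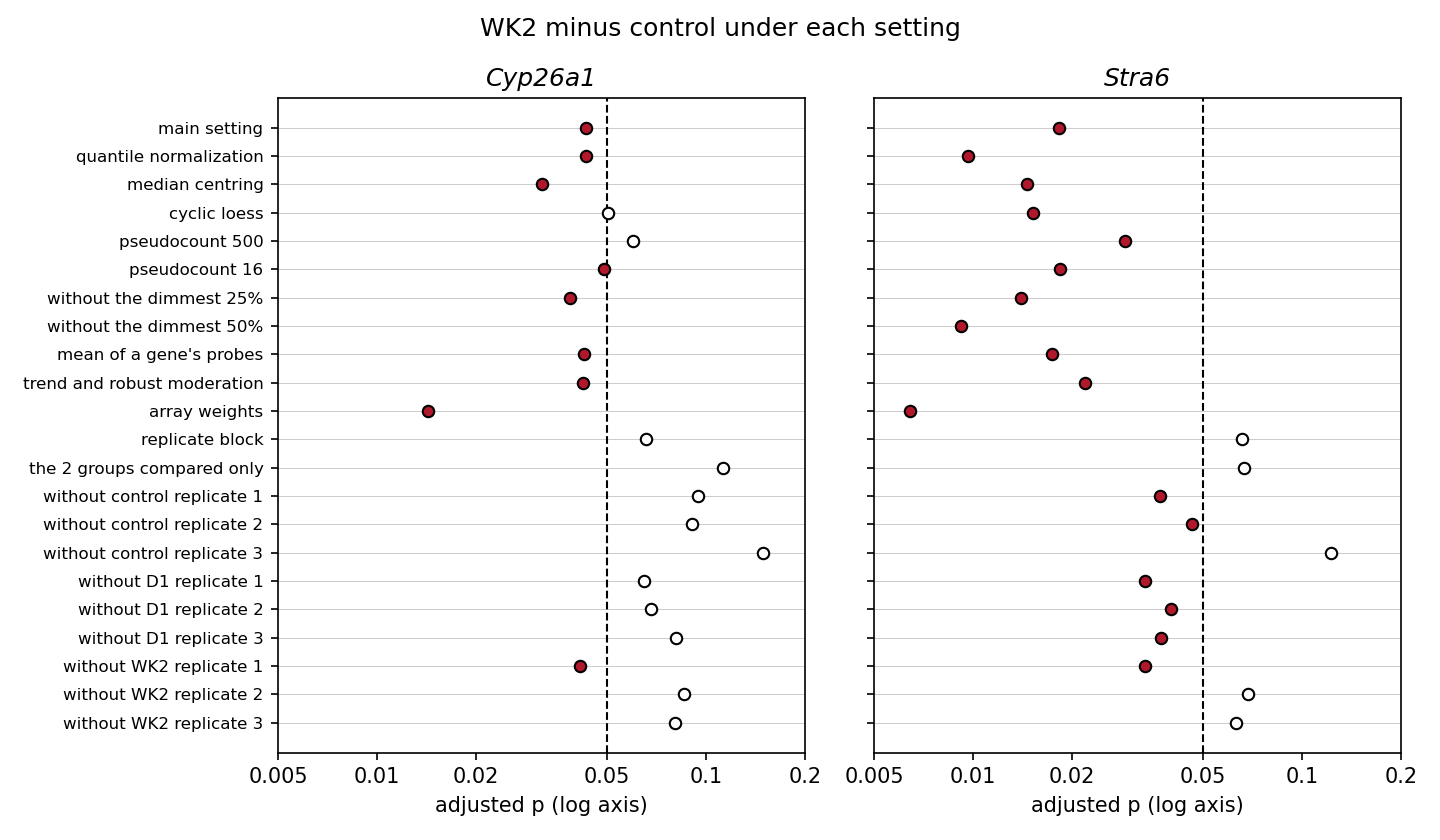
Adjusted p of Cyp26a1 and Stra6 in WK2 against control under each setting of the fit, on a log axis, with a dashed line at 0.05 and filled points for values under it. Cyp26a1 was called in 8 of 20 alternatives and Stra6 in 16 of 21; Cyp26a1 has no value without the dimmest 50% of features, since it was among those left out.

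The 3 enzymes that oxidise retinal to retinoic acid were not called in any comparison, and their differences had both signs. Aldh1a1 had an intensity of 124443, 143543 and 236285 in WK2 samples, 116423, 107819 and 110165 in D1 samples and 96025, 150354 and 87995 in control samples. WK2 replicate 3 was the highest array, control replicate 2 lay inside the WK2 range, and the D1 samples lay close together and below all WK2 samples. The log2 difference was 0.58 ± 0.26 (SE) in WK2 against control (adjusted p = 0.174, limma), and 0.30 without WK2 replicate 3. Against D1 it was 0.54 ± 0.26 (adjusted p = 0.286, limma). The near-identical gene Aldh1a7 averaged 101597 ± 54553 in WK2 and 73817 ± 3772 in control (SD, n = 3 each), and whether the probes of this pair tell their transcripts apart was not tested.

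Aldh1a2, the enzyme of mesenchymal tissues in mouse embryos, had an intensity of 3351, 2536 and 4037 in WK2 samples, 3685, 4091 and 3627 in D1 samples and 4139, 5858 and 4266 in control samples. All WK2 and all D1 values lay below the lowest control value, with WK2 and D1 overlapping each other. Aldh1a2 differed by log2 -0.52 ± 0.20 (SE) in WK2 against control (adjusted p = 0.125, limma) and -0.30 ± 0.20 in D1 against control (adjusted p = 1.00). Among the 9 genes, the groups did not overlap in WK2 against control for 1 that was higher and 2 that were lower, beside 23.8% and 13.8% of features, or 37.6% in either direction. In WK2 against D1 they did not for 2 higher (Cyp26a1 and Aldh1a1) and 1 lower (Stra6), beside 18.7% and 12.6%, or 31.4% in either direction. In D1 against control they did not for 0 higher and 1 lower (Aldh1a2), beside 4.92% and 5.19%, or 10.1% in either direction.

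Aldh1a3, which makes retinoic acid in nasal and ocular epithelium of mouse embryos, had an intensity of 2952, 3857 and 4969 in WK2 samples, 5009, 5120 and 4037 in D1 samples and 3467, 4217 and 3672 in control samples. The WK2 values spanned those of control and D1 overlapped both. Aldh1a3 differed by log2 0.03 ± 0.20 (SE) in WK2 against control, with a 95% interval from -0.42 to 0.47. The difference changed sign in 4 of 21 alternatives. These were median centring (-0.08), array weights (-0.11) and the fits without control replicate 1 (-0.03) or WK2 replicate 3 (-0.16). In D1 against control the difference was 0.31 ± 0.20 (adjusted p = 1.00, limma).

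**Figure D3:**
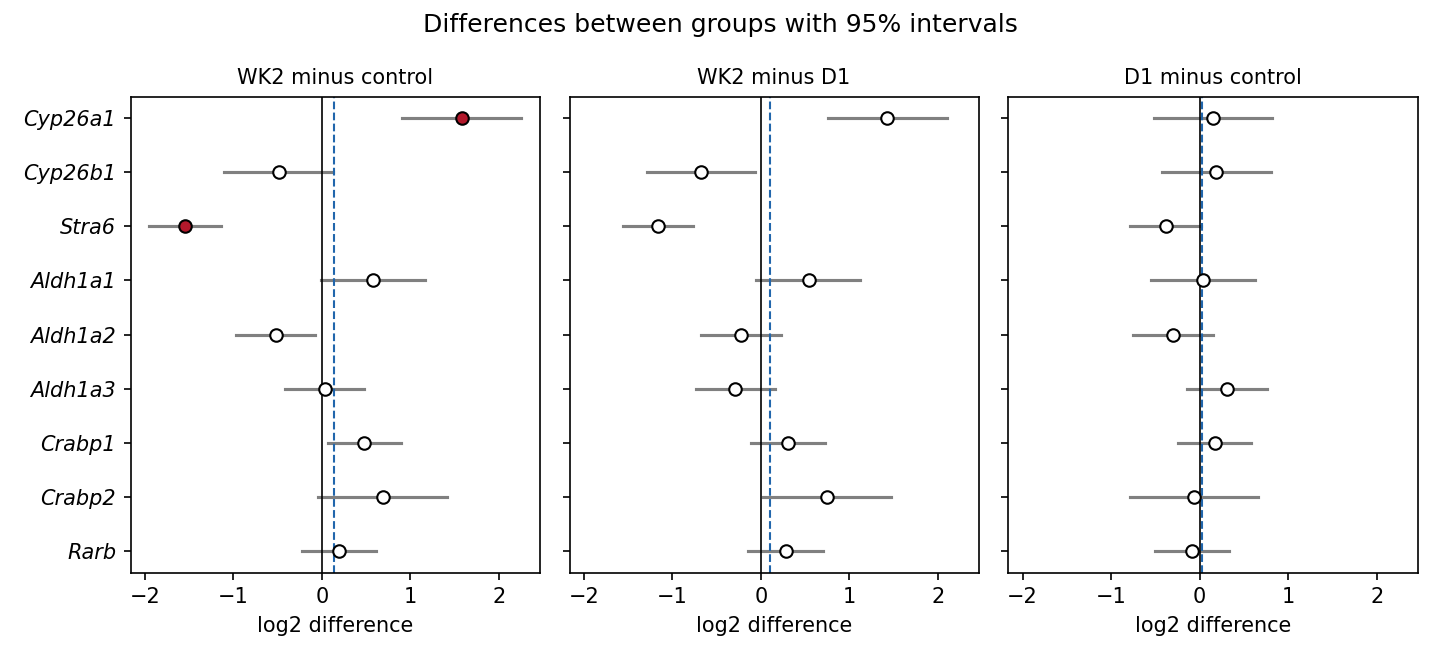
Log2 differences of the 9 genes with their 95% intervals for WK2 against control, WK2 against D1 and D1 against control. Filled points passed an adjusted p of 0.05 and the dashed line is the median of all features. In WK2 against control Cyp26a1 lies at 1.58 and Stra6 at -1.55, and in D1 against control every interval spans 0.

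Crabp1 and Crabp2 encode the cellular retinoic acid binding proteins. Crabp1 had an intensity of 72411, 57112 and 77193 in WK2 samples, 54564, 61956 and 49702 in D1 samples and 45883, 60492 and 42467 in control samples. WK2 replicates 1 and 3 lay above all other arrays and WK2 replicate 2 lay within the control range. The log2 difference was 0.48 ± 0.19 (SE) in WK2 against control (adjusted p = 0.127, limma), and Crabp1 was called in 1 of 21 alternatives, with array weights (0.61, adjusted p = 0.0312).

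Crabp2 had an intensity of 36945, 26260 and 75436 in WK2 samples, 27580, 23728 and 23477 in D1 samples and 26590, 30240 and 21795 in control samples. WK2 replicate 3 stood far above the rest, and WK2 replicate 2 lay within the D1 and control ranges. The log2 difference was 0.69 ± 0.32 (SE) in WK2 against control (adjusted p = 0.185, limma), and 0.26 without WK2 replicate 3. Against D1 it was 0.75 ± 0.32 (adjusted p = 0.249, limma), and 0.32 without WK2 replicate 3. The same array was the highest for Aldh1a1 and Crabp1.

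Rarb encodes retinoic acid receptor beta, whose promoter carries the repeat shown above. Its intensity was 6234, 5020 and 6453 in WK2 samples, 5615, 4325 and 4628 in D1 samples and 4640, 6491 and 4517 in control samples. The 3 groups overlapped, and the highest value was in control replicate 2. WK2 against control gave a log2 difference of 0.19 ± 0.19 (SE) in WK2 against control (95% interval -0.23 to 0.61, adjusted p = 0.499, limma), beside 1.58 for Cyp26a1, the other gene with this repeat. It was 0.28 ± 0.19 in WK2 against D1 and -0.09 ± 0.19 in D1 against control, and neither was called.

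The order of the group means, on the log2 scale, differed between the genes. WK2, D1 and control ran from high to low for Cyp26a1, Aldh1a1 and Crabp1, and from low to high for Stra6 and Aldh1a2. For Cyp26b1 and Aldh1a3 the D1 mean was the highest, and for Crabp2 and Rarb the D1 mean was the lowest. The D1 and control means lay closer to each other than the SD pooled over the 3 groups for Cyp26a1, Cyp26b1, Aldh1a1, Crabp1, Crabp2 and Rarb, for instance 0.15 apart for Cyp26a1 with a pooled SD of 0.43. For Aldh1a2 the D1 and WK2 means, for Aldh1a3 the WK2 and control means and for Rarb the WK2 and control means were also closer than that SD. For Stra6 the means of control and D1 were 0.38 apart and those of D1 and WK2 1.16 apart, with a pooled SD of 0.21.

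Markers of the cells of the mucosa were set beside the same contrast. Omp, the gene of olfactory marker protein, was bright on every array and averaged 506735 ± 30934 in WK2 and 337461 ± 64145 in control (SD, n = 3 each), and was not called. The samples of each group were picked for expression of that protein, so the difference in Omp cannot tell the groups from that choice. Of the 9 mature neuron markers, Omp among them, 6 lay above and 3 below control, with a median of 0.18 beside 0.14 over all features and 0 called. Their summed intensity, which includes Omp, was 1341799 to 1454429 in WK2 and 1102666 to 1278536 in control. Cyp2g1 of sustentacular cells averaged 619114 ± 51741 in WK2 and 425252 ± 48522 in control, and was not called either. The summed intensity of 5 measured sustentacular markers was 1473374 to 1636301 in WK2 and 1010841 to 1268209 in control, with 5 of 5 above control and 0 called. Such sums follow the brightest genes of a list. That of 5 horizontal basal cell markers was 42363 to 45292 in WK2 and 29205 to 34036 in control, with 3 above, 2 below and 0 called. The sum of 6 fibroblast markers was 446293 to 785948 in WK2 and 373651 to 395551 in control, but with 4 above and 2 below the median was 0.11, under that of all features, and 0 were called. The sum of 6 gland markers was 157295 to 209922 in WK2 and 221494 to 317966 in control, with 2 above, 4 below and 0 called. Immature neuron markers summed to 173468 to 203521 in WK2 and 238581 to 270464 in control, with 1 above and 5 below, of which 1 was called lower. Of 5 globose basal cell markers 3 lay above and 2 below, with 1 called lower and a lower sum in WK2. Of 6 bone markers 2 lay above and 4 below, with 1 called lower. Sums of respiratory ciliated and squamous keratinocyte markers lay above control and that of endothelium below, with 0 called. Those of bone, ensheathing glia, neutrophils and erythroid cells overlapped control. No measured marker averaged under an intensity of 420. The part of these differences in the values of Cyp26a1, Stra6 and the other genes was not tested. In bulk tissue, fewer cells of a type and less RNA per cell cannot be told apart.

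Of 68 other genes of retinoid handling, 63 were measured, and the fit called 0 of them in WK2 against control, beside 1.61% of features. At an unadjusted p under 0.05 there were 25, beside 29.7% (limma). It called 0 in WK2 against D1, beside 0.0931%, and 17 had an unadjusted p under 0.05, beside 19.2%. In D1 against control it called 0, beside 0.0%, and 1 had an unadjusted p under 0.05, beside 2.0%. The count in WK2 against control reached 12 of the 63 with array weights, beside 2728 of all 23631 features. It reached 16 of the 63 when the threshold was an adjusted p of 0.1, beside 3594 of all 23631 features. Over all features, 62.7% lay above control in WK2. The genes named below are the 3 of smallest p in each role, and all of them are given as not called.

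The nuclear receptors listed were Rara, Rarg, Rxra, Rxrb, Rxrg and Ppard. Of 6 measured, 5 lay below control in WK2, with a median of -0.45 beside 0.14 over all features, and 6 did after quantile normalization or cyclic loess, and 5 after median centring. Rarg, a retinoic acid receptor, had 23318, 22919 and 18994 in WK2 samples and 28461, 31132 and 33770 in control samples, a log2 difference of -0.52 ± 0.16 (SE, adjusted p = 0.0815, limma). The retinoid X receptors Rxra and Rxrb, partners of the retinoic acid receptors, differed by -0.59 and -0.39. Of 5 measured coregulators 4 lay below control, and the median of the 5 was -0.68, or -0.78 to -0.63 under the 3 other scalings, namely quantile normalization, median centring and cyclic loess. Ncoa1, a coactivator of nuclear receptors, had 15444, 11498 and 6768 in WK2 samples and 24540, 25130 and 23581 in control samples (log2 -1.19 ± 0.27, adjusted p = 0.0553, limma). Zfp423, a zinc finger cofactor, differed by -0.72 and Ncoa2 by -0.68.

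Enzymes that interconvert retinol and retinal were divided. Of 17 measured, 10 lay above and 7 below control, with a median of 0.15, and 9 and 8 with medians of 0.01 to 0.04 under the same 3 scalings. Rdh16, a retinol dehydrogenase, had 3080, 4178 and 4569 in WK2 samples and 2446, 1883 and 2377 in control samples (log2 0.79 ± 0.18 SE, adjusted p = 0.0553, limma). It was called in 8 of 21 alternatives, with a difference of 0.55 to 0.96. Of the other retinoid genes named, Ncoa1 was called in 6, Rdh5 in 5 and Bco1, Ret and Zfp423 in 4 each. The rest were called in 2 at most. Rdh10, which oxidises retinol to retinal ahead of the ALDH1A enzymes, had 4111, 3988 and 3129 in WK2 samples and 6230, 5021 and 6025 in control samples (log2 -0.62 ± 0.17, adjusted p = 0.0716, limma). Rdh5 differed by -0.52 (adjusted p = 0.0613, limma).

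Of 7 other synthesis and degradation enzymes, 6 lay above control, beside 62.7% of features. Their median was 0.54, and 0.35 to 0.44 under the 3 other scalings. Bco1, which splits beta-carotene into retinal, had 1968, 4619 and 1415 in WK2 samples and 682, 458 and 870 in control samples (log2 1.78 ± 0.41 SE, adjusted p = 0.0557, limma). All 3 WK2 samples of Bco1 lay above control, with replicate 2 the highest. Aldh8a1, a retinal dehydrogenase of the 9-cis form in mouse, differed by 0.60 and Bco2, another carotenoid-cleaving enzyme, by 0.54.

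Of 11 genes of uptake, transport and storage, 9 lay above control, beside 62.7% of features, with a median of 0.41. Under quantile normalization and cyclic loess 9 did, with medians of 0.24 and 0.27, and under median centring 8 did, with a median of 0.31. Stra6l, the relative of Stra6 also known as Rbpr2, had 275, 523 and 158 in WK2 samples and 138, 82.9 and 104 in control samples (log2 1.11 ± 0.35 SE, adjusted p = 0.0845, limma). Its WK2 samples lay above control, where those of Stra6 lay below. Stra6l was dim, however, and with no detection calls its level above background is not known. Against D1, at 117, 126 and 235, the WK2 values of Stra6l overlapped. Rbp2, a cellular retinol binding protein, differed by 0.50 and Rpe65, the isomerase of the eye, by 0.48. Of 17 target genes of the pathway 12 lay above control, with a median of 0.28, and 11 or 12 with medians of 0.18 to 0.30 under the 3 other scalings. Ripply3, a transcriptional corepressor, had 2138, 4083 and 2174 in WK2 samples and 1457, 1006 and 1295 in control samples (log2 1.08 ± 0.29, adjusted p = 0.0683, limma). Hoxb5, a homeobox gene, differed by 0.98 and Ret, a receptor tyrosine kinase, by -0.60. For Bco1, Bco2, Aldh8a1, Stra6l, Rpe65, Ripply3 and Hoxb5 alike, WK2 replicate 2 was the highest and control replicate 2 the lowest of the 9 arrays. Rdh16 and Rbp2 were also lowest in control replicate 2 but highest in WK2 replicate 3. With WK2 replicate 2 or control replicate 2 left out, 0 of the other retinoid genes were called, as with all 9 arrays. Beside this, 1 and 37 of all features were called in those fits. How far these single arrays set the size of the differences is not reported.

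**Figure D4:**
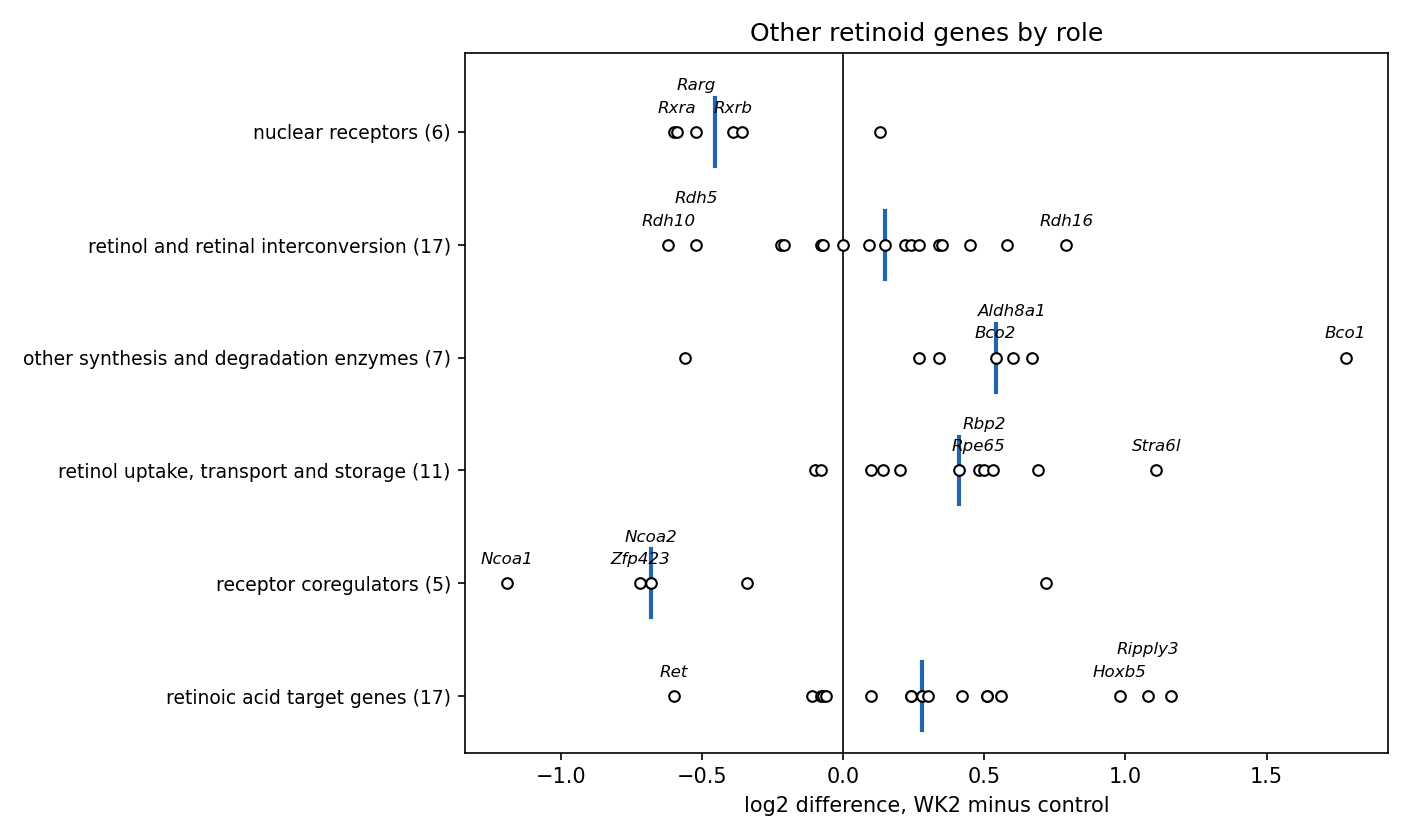
Log2 differences of 63 other retinoid genes in WK2 against control, 1 point for each gene, by role, with the number measured in brackets and a vertical bar at the median of each role. No point passed the test; Bco1 lies at 1.78 and Ncoa1 at -1.19.

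The genes whose values ran closest to Cyp26a1 and Stra6 were found by the mean absolute gap over the 9 arrays, after each gene's log2 values were centred on their own mean. Since likeness chose them, their differences are a description too. For Stra6 they were Cys1 (gap 0.11), Cnot3 (0.12), Apcdd1, Rims2 and Cdh23 (0.14 each), where the median gap over all named genes was 0.66. Cys1, which encodes the cilium-associated protein cystin, had 842, 909 and 749 in WK2 samples, 2098, 2152 and 2322 in D1 samples and 2057, 2833 and 2299 in control samples. All 5 of these were called lower in WK2 against control, with log2 differences of -1.60 to -1.24 and adjusted p of 0.0182 to 0.0400 (limma). For Cyp26a1 the nearest were less close, with gaps of 0.28 to 0.32: the odorant receptors Olfr414 and Olfr175, 1700003H04Rik, Tnfsf11 and Spon2. Of these 5, Tnfsf11, which encodes the cytokine RANKL, was called higher (log2 1.14, adjusted p = 0.0492, limma), at 2167, 1190 and 2188 in WK2 samples, 993, 1105 and 798 in D1 samples and 782, 815 and 741 in control samples.

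**Figure D5:**
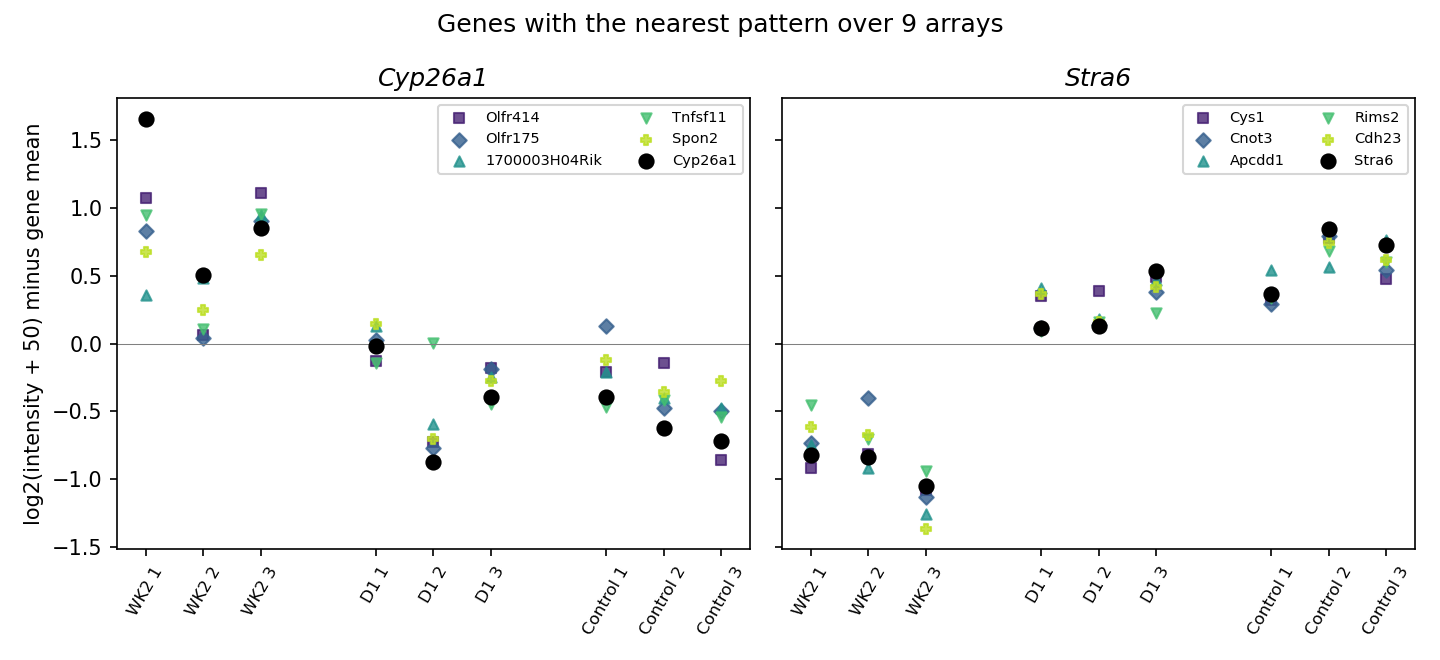
Centred log2(intensity + 50) of Cyp26a1 and Stra6 (black) and of the 5 genes nearest to each, array by array in the WK2, D1 and control groups. The 5 genes near Stra6 lie within a mean gap of 0.14 of it, and those near Cyp26a1 within 0.32.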

How the data were processed

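The authors deposited 1 table of linear intensity values, 26423 probes by 9 arrays; between 8 and 18 probes an array lie below 0, as after background subtraction. Per the labels' protocols, total RNA was amplified and labelled with Cy5. No source used here names the scanner, software or scaling. Array medians were 1202 to 1447, and the values were used as deposited. The number of arrays limits the precision.

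Probes were named by the platform annotation, updated by gene ID through RefSeq's table for GRCm38.p6. Of all probes, 21876 had 1 symbol, 4547 none and 0 several. The probe of highest mean stood for a gene, which left 23631 features. Values below 0 were set to 0, and log2(intensity + 50) was fitted over all 9 arrays with limma 3.58.1 in R 4.3.3, with Benjamini-Hochberg adjustment of the p-values across all features. The fit was tested on simulated data. An exact permutation test of 3 against 3 arrays cannot give a p under 0.1. The 9 genes, the lists and the tests were chosen with earlier results of these data known. Other retinoid genes were named as the 3 of smallest p in WK2 against control for each role and any that passed, and nearest patterns as the 5 of smallest gap for Cyp26a1 and each gene called. Replicate numbers come from the labels, which name no shared animal or day. Alternatives were other scalings, pseudocounts, filters on dim features, probe averaging, moderation, array weights, a replicate block, fits of the 2 groups compared only, another threshold and each array left out.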

Additional observations from a re-analysis of the deposited data

How the results depend on the processing

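Of the 27 differences of the 9 genes, 22 kept their sign in every alternative tried, at most 21 for each. The exceptions were Cyp26a1, Aldh1a1, Crabp2 and Rarb in D1 against control and Aldh1a3 in WK2 against control, none of them called. The count of the 9 genes called in WK2 against control was 2, and it was 3 with array weights, 1 under cyclic loess, with a pseudocount of 500 and without the dimmest 50% of features, 0 with the replicate block or in the fit of the 2 groups compared only, and 0 to 2 with 1 array left out. In WK2 against D1, where it was 0, it was 1 under quantile normalization, median centring, without the dimmest 25% or 50% and at an adjusted p under 0.1, and 2 with array weights. The count of other retinoid genes in WK2 against control, 0, was 6 under quantile normalization, 8 under median centring, 2 under cyclic loess and with a pseudocount of 500, 3 and 5 without the dimmest 25% and 50%, 12 with array weights and 16 at an adjusted p under 0.1. It was 0 to 4 with 1 array left out. These counts of other retinoid genes are out of 63, and the next paragraph gives those over all features in the same settings.

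Over all features, 380 were called in WK2 against control, 102 higher and 278 lower. There were 1417 under quantile normalization, 1543 under median centring (219 higher and 1324 lower), 682 under cyclic loess, 779 and 131 with pseudocounts of 500 and 16, 576 and 1135 without the dimmest 25% and 50%, 2728 with array weights, 1 with the replicate block, 0 in the fit of the 2 groups compared only, 3594 at an adjusted p under 0.1 and 1 to 955 with 1 array left out. In WK2 against D1 there were 22, and 75, 50 and 53 under the same 3 scalings, 13 with a pseudocount of 500, 36 without the dimmest 25%, 134 with array weights, 6 with the replicate block, 2 in the fit of those groups only, 64 at an adjusted p under 0.1 and 1 to 27 with 1 array left out. In D1 against control there were 0, and 0 to 1 with 1 array left out. The cause of these changes was not tested. Same-numbered arrays of different groups correlated at -0.282 to 0.136 in their deviations from the group means, so the numbers were not taken to pair them, and the replicate block gave adjusted p = 0.0659 (limma) for both Cyp26a1 and Stra6. With no detection calls, how far the dim values of Cyp26a1, Stra6l and Aldh8a1 lie above background is not known.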
